A study of Mus musculus with 58 samples.

Results

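RNA-seq of hematopoietic stem cells (HSCs) from old mice taken off lifelong caloric restriction (CR) was compared with RNA-seq of HSCs from old mice kept on it. The members of the comparison were the 6 RNA libraries of these 2 groups, 4 of the OCR group (old, caloric restricted) and 2 of the OCRRF group (old, caloric restricted, refed), of 58 samples in the series. Genes were tested where their mean level over the 6 libraries was at least 5 CPM (a gene's counts scaled to a common library total), which left 12488 of 55376 genes. All animals were wild-type C57BL/6 males. The OCR mice were 24 to 26 months old and had received 40% less food than ad libitum (ad lib) animals since the age of 3 to 4 months. The OCRRF mice were of the same age and had eaten ad lib for 4 weeks after the same lifelong CR. Levels in HSCs of old mice fed ad lib throughout (OAL, 4 libraries, 24 to 26 months) stand beside each result. Young mice of 3 to 4 months gave the same contrast after short-term CR, with 4 libraries of restricted animals (YCR, 20% restriction in the first week and 40% from then on, 4 weeks in all) and 4 of animals refed for 4 weeks after it (YCRRF). The study's legends count replicates as mice, while the labels tie no library to an animal, so the p-values measure the spread between these libraries. HSCs had been sorted from bone marrow as PI- Lin- Sca-1+ c-Kit+ CD34- Flk2- CD150+ cells, so a shift in the make-up of this gate and a change of RNA within its cells cannot be told apart in these bulk libraries, nor can fewer cells of a type and less RNA per cell.

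HSCs sit at the top of blood formation and are mostly quiescent. They enter the cell cycle when they are called on to make progenitors, and then switch on the E2F-driven genes of DNA replication and the genes of mitosis. Food intake reaches them as insulin, IGF-1, cytokines and lipids, and is read by AKT and FOXO, by the JAK-STAT pathway and by the sterol-sensing SREBP factors. Low growth factor signalling releases FOXO into the nucleus, and cytokines acting through STAT5 switch on their own feedback inhibitors such as Socs2 and Cish. Protein folding capacity follows secretory load through the unfolded protein response (UPR) of the endoplasmic reticulum (ER).

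Promoter sequences of genes from 4 gene lists (S phase, G2/M, ER chaperones and interferon-stimulated genes) are shown first. These lists are known for short motifs near the start sites of their genes. The genes shown were picked, by smallest p, among called members that hold the motif. They are therefore examples and do not stand for their lists. The sequences are RefSeq's (GRCm38.p6, the mm10 genome), cover the 250 bases before a RefSeq start of the gene, and read from 5′ to 3′ on the strand of the gene. That start can differ from the end of the GENCODE gene whose coordinates are given with the values, and for Hspa5, Uhrf1 and Hsp90b1 the window reaches into the GENCODE gene. Capitals mark the motif searched on both strands. A match on the opposite strand appears as the reverse complement, such as ATTGG for CCAAT. In the S phase genes Dtl (chr1:191575545-191575794, minus strand) and Uhrf1 (chr17:56303087-56303336, plus strand) they mark the E2F motif as TTCCCGC or TTGGCGC. In the mitotic genes Mki67 (chr7:135716380-135716629, minus strand) and Top2a (chr11:99024190-99024439, minus strand) they mark CCAAT, the box bound by NF-Y, and TTTGAA, the cell cycle homology region (CHR). In the ER chaperone genes Hspa5 (chr2:34771840-34772089, plus strand) and Hsp90b1 (chr10:86705445-86705694, minus strand) they mark the ER stress element (ERSE), searched as CCAAT and CCACG with 9 free bases between them, whose first letters are also a CCAAT box and are counted as such. Ifit1 (chr19:34640639-34640888, plus strand), an antiviral interferon-stimulated gene chosen after its values were seen, holds the interferon-stimulated response element (ISRE), searched as a pair of GAAA with 2 free bases between them.
Dtl: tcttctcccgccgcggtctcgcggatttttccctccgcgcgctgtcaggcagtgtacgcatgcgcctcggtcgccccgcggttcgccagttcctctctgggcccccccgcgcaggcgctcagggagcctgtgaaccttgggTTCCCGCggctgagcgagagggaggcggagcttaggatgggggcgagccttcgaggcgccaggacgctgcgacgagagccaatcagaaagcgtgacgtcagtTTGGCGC
Uhrf1: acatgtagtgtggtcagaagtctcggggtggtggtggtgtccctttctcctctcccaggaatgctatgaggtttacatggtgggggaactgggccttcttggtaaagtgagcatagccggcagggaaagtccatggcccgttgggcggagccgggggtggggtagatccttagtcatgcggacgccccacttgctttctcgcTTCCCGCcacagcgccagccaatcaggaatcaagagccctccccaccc
Mki67: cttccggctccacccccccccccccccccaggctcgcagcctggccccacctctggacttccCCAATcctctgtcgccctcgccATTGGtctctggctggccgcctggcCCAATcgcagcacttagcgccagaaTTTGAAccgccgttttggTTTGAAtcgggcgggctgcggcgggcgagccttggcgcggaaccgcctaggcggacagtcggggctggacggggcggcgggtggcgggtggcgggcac
Top2a: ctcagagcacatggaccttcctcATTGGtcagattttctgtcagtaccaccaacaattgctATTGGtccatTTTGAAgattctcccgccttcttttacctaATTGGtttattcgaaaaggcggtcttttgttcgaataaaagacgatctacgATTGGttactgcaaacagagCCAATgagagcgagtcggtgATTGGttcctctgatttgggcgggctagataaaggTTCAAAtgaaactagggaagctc
Hspa5: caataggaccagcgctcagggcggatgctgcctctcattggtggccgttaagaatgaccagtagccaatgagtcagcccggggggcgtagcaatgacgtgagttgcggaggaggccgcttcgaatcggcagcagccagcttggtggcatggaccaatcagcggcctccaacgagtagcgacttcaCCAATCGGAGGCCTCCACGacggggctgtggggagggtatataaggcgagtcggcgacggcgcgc
Hsp90b1: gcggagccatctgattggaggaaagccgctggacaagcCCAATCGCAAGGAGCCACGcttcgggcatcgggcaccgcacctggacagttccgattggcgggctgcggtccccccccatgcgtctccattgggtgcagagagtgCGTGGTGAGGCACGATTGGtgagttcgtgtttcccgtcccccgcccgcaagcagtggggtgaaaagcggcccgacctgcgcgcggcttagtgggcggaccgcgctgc
Ifit1: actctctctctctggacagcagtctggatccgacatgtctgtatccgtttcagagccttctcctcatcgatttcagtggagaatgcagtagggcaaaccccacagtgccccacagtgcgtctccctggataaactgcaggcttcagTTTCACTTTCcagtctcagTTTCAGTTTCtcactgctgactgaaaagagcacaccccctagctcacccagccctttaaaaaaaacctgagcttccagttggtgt

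The E2F letters lay 109 and 7 bases before the start of Dtl and 48 bases before that of Uhrf1. Mki67 held CCAAT at 188, 166 and 141 bases and CHR at 116 and 98 bases before the start. A promoter was at hand for 9412 of the 12488 genes tested. Either form of the E2F motif stood in 45.2% of the S phase promoters (14 of 31) and in 10.5% of all tested promoters. CHR stood in 40.4% of the G2/M promoters (19 of 47) against 10.4% of all. CCAAT was held by 76.6% of the G2/M promoters, 71.0% of the S phase promoters and 36.5% of all. ERSE stood in 32.0% of the promoters of the ER list (8 of 25) against 0.17% of all, and ISRE in 50.0% of those of the interferon list (16 of 32) against 2.73% of all. These shares describe the letters in the window and say nothing of binding. Among genes called lower in OCRRF, 49.8% held CCAAT, 17.9% an E2F motif and 14.7% CHR. Among genes called higher, 34.3% held CCAAT, 7.33% an E2F motif, 12.3% CHR, 5.33% ISRE, 9.33% the STAT motif TTCNNNGAA (5.89% of all) and 4.33% the FOXO motif GTAAACA (2.03% of all). Among genes called lower, ISRE and the STAT motif each stood in 3.90% and the FOXO motif in 1.42%.

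The OCR libraries held 27979109 to 34385179 counts, the OCRRF libraries 29180038 (replicate 1) and 23497989 (replicate 2), and the OAL libraries 30235212 to 33772852. No pair of libraries of a group agreed within counting noise. Counts on 1736 olfactory and vomeronasal receptor genes, which HSCs are not known to use and which serve as a measure of background, summed to 561 to 1257 CPM in OCR, 1161 and 1486 CPM in OCRRF and 530 to 752 CPM in OAL. OCRRF replicate 2 lay above every OCR library and replicate 1 between OCR replicate 3 and the other OCR libraries. A fit with this background as a covariate is given beside the lists it changed. Markers of the gate were present in every library (Kit at 1387 to 1927 CPM over OCR and OCRRF, with Mecom and Hlf), whereas Il7r, Cd3e, Itgam and Ly6g, marks of cells gated out, stayed at 3.96 CPM or less. Summed B and plasma cell markers stood at 53.6 to 64.1 CPM in OCR and at 75.2 and 71.1 CPM in OCRRF, and neutrophil and monocyte markers at 437 to 570 and at 611 and 588 CPM. Among the 20 neutrophil and monocyte markers S100a9 ran from 0.739 to 28.1 CPM within OCR alone. Most of their sum was Lyz2, at 385 to 436 CPM in OCR and at 465 and 444 CPM in OCRRF. None of the markers of these lists was at 0 in all 6 libraries, and their part in the results was not tested. In a principal component analysis of the 500 most variable tested genes, the first component (57.5% of the variance) put OCR at 9.28 to 16.8, both OCRRF libraries at -8.84 and -7.17, and OAL at -10.5 to -7.30.

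After refeeding 1102 genes differed in HSCs of old mice from lifelong CR, 8.82% of those tested, of which 396 (3.17%) were higher and 706 (5.65%) lower in OCRRF than in OCR. Genes of DNA replication, mitosis, protein folding in the ER and sterol synthesis were among those lower, and feedback genes of cytokine signalling, FOXO targets, interferon-stimulated genes and genes known to rise in aged HSCs were among those higher. A gene was called with a Benjamini-Hochberg adjusted p below 0.05 over all genes tested in edgeR's quasi-likelihood test and a fold change above 1.2. The median fold was 1.51 among genes called higher and 1.43 among those called lower, with 37 and 130 genes past 2-fold. In 395 of the 396 higher and 706 of the 706 lower genes the libraries of the groups did not overlap, against 34.3% of all genes tested, and the exception was the globin gene Hbb-bs. The call and the lack of overlap use the same values. Of the called genes, 28 of the higher ones had an OCR mean under 5 CPM and 27 of the lower ones an OCRRF mean under 5 CPM, so these passed the level filter through the group in which they were high. The direction of every called gene stayed under each alternative that tested it, but the number called rested on single libraries. Without OCRRF replicate 1 it was 213 (53 higher and 160 lower), without OCRRF replicate 2 it was 526, without OCR replicate 2 it was 561, and with the receptor background as a covariate it was 139 (28 and 111). Scaling factors from the 32577 genes kept by edgeR's own expression filter shifted the median of all genes tested by -0.14 on the log2 scale. They moved the share of higher calls from 35.9% to 17.7%. That set also holds genes under 5 CPM, where background weighs more, and is termed all expressed genes, or all-gene scaling, below. OCRRF replicate 1 stood farther from OCR than replicate 2 in most called genes, being the higher of the pair in 268 of the 396 genes called higher and in 228 of the 706 called lower.

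Each of the next values is TMM-normalized CPM in single libraries, in the order of the replicate numbers, or a log2 fold change of OCRRF over OCR, followed by its standard error (SE). The adjusted p is that of edgeR's quasi-likelihood test with Benjamini-Hochberg adjustment over all 12488 genes. OAL and OCR are set side by side for description only, since comparisons with OAL share the OCR and OCRRF libraries with the main comparison. In 1 fit of the 3 groups, 1654 genes (13.3%) were called between OCR and OAL, 906 higher (7.28%) and 748 lower (6.01%) in OCR, with 30.2% at an unadjusted p under 0.05, and 1 gene (0.00804%) between OCRRF and OAL. That gene was Lpl, which encodes lipoprotein lipase, at 34.6 to 51.4 CPM in OAL and 21.1 and 20.7 CPM in OCRRF. At an unadjusted p under 0.05 the OCRRF and OAL groups differed in 1281 genes (10.3%). Genes called higher in OCRRF over OCR had a median of -0.41 for OCR minus OAL and 0.16 for OCRRF minus OAL on the log2 scale. For those called lower these medians were 0.42 and -0.06.

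The cell cycle genes fell most broadly. Of 43 S phase genes tested 39 were lower and 0 higher in OCRRF, with a median log2 fold change of -0.93, and of 54 G2/M genes 47 were lower and 0 higher, with a median of -1.02. The median over all genes tested was -0.00. Casp8ap2, Ubr7 and Cenpu were among the 4 S phase genes not called. Together these lists held 86 of the 706 genes called lower (12.2%). Mki67 (chr7:135689784-135716361, minus strand), a marker of cycling cells, stood at 128, 148, 112 and 117 CPM in OCR and at 41.5 and 40.6 CPM in OCRRF, a log2 fold change of -1.62 ± 0.11 (SE; adjusted p = 8.51e-05). Its level in the refed libraries was 3.07-fold lower than in the restricted ones, the pair lay close together, and the OAL libraries spanned 31.9 to 40.5 CPM. Top2a, the topoisomerase of mitotic chromosomes, was at 135 to 183 CPM in OCR and at 47.3 and 53.8 CPM in OCRRF. Every OCR library lay far above both. When OCRRF replicate 1 was left out there were 27 S phase and 35 G2/M genes lower, and with the receptor background as a covariate 19 and 27, with 0 higher in either.

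Genes of the replication machinery came first. Rrm2, the small subunit of ribonucleotide reductase, was at 63.1, 55.3, 43.7 and 46.4 CPM in OCR and at 17.6 and 15.9 CPM in OCRRF (log2 fold change -1.64 ± 0.15, adjusted p = 0.000154). Mcm5, part of the replicative helicase, fell by 1.33 on the log2 scale, and Dtl, which directs the destruction of licensing factors, fell by 1.51. Uhrf1, which carries DNA methylation through replication, fell by 1.56 and Atad2, a chromatin ATPase, by 0.94. The groups did not overlap in any of these genes. Among mitotic genes, Ccnb2 (cyclin B2) was at 40.7 to 58.7 CPM in OCR and at 12.7 and 14.9 CPM in OCRRF, 3.53-fold lower. Birc5 (survivin) was 3.54-fold, Kif18b (a kinesin) 3.81-fold, Tpx2 (a spindle assembly factor) 3.24-fold, Bub1 (a checkpoint kinase) 3.44-fold and Kif11 (the spindle kinesin Eg5) 3.21-fold lower. Ankle1, a nuclease, showed the largest fall among genes named by the rule, from 18.6, 20.0, 15.6 and 14.4 CPM to 3.32 and 5.17 CPM (4.07-fold, adjusted p = 0.000317). Its OCRRF mean was under 5 CPM, so Ankle1 passed the level filter through the OCR libraries. Cdk1 fell 2.48-fold, Ccna2 (cyclin A2) 2.83-fold and Ect2, a factor of cytokinesis, 2.16-fold.

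The regulators of the cycle changed less evenly. Of 21 tested genes for D cyclins, their kinases, CDK inhibitors, pocket proteins and E2F factors, 9 were lower and 0 higher (median -0.30). E2f1, an activator of S phase genes, was at 45.3, 40.6, 31.9 and 30.8 CPM in OCR and at 14.7 and 13.6 CPM in OCRRF (log2 fold change -1.39 ± 0.17, adjusted p = 0.000498). Both refed libraries lay far below the lowest OCR library. Ccne1 (cyclin E1) fell by 1.22, Cdk6 by 0.78 and Rbl1 (p107) by 0.65 on the log2 scale. Checkpoint and repair genes went the same way, with Chek1 at -1.12, Brca1 at -1.12 and Chek2 at -0.56. Of this list 1 gene was called without OCRRF replicate 1 and 3 with the covariate.

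**Figure D1:**
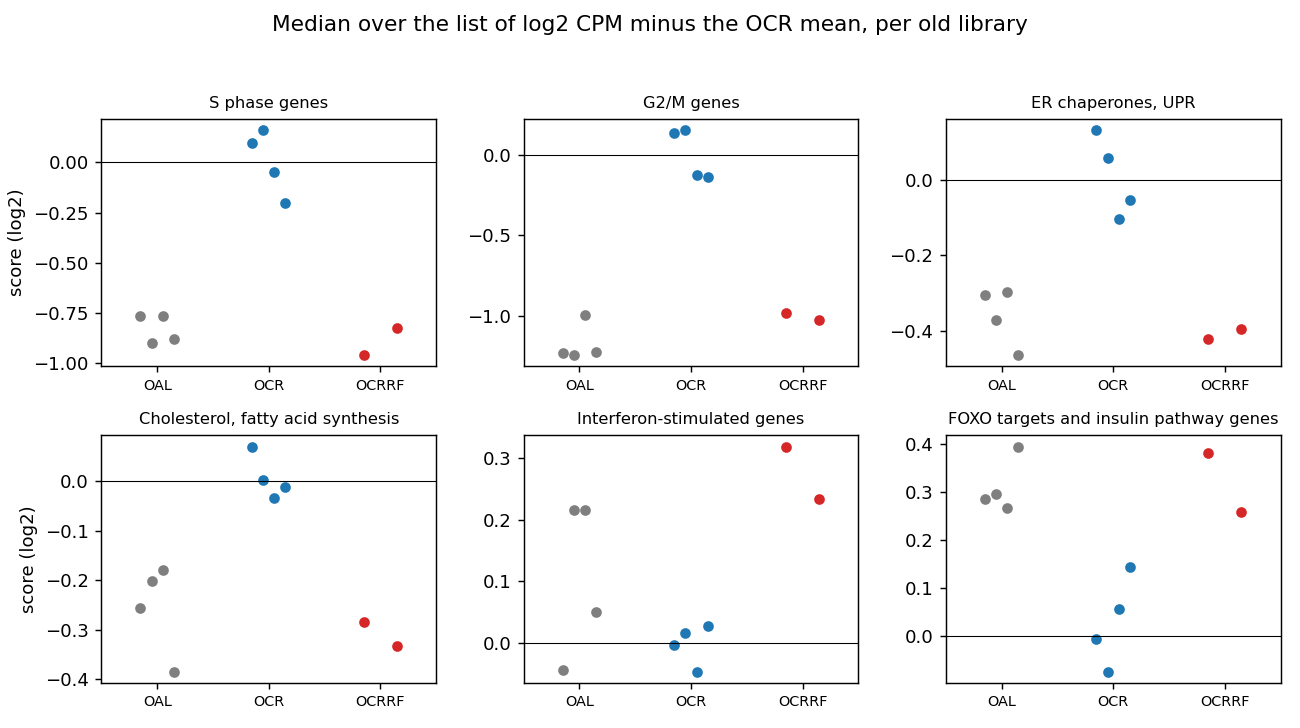
Score of 6 gene lists in each old library (vertical axis, log2 scale: the median over the list of log2 CPM minus the mean of the 4 OCR libraries), by group on the horizontal axis, with 1 point per library. The S phase score stood at -0.20 to 0.16 in OCR, at -0.96 and -0.82 in OCRRF and at -0.90 to -0.76 in OAL, and the OCRRF points lay outside the OCR range in all 6 lists drawn.

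The per-library scores drawn for 6 lists give the spread within each group. The G2/M score was -0.14 to 0.16 in OCR, -0.98 and -1.02 in OCRRF and -1.24 to -0.99 in OAL. For the ER list the OCRRF scores were -0.42 and -0.39, for sterol and fatty acid synthesis -0.28 and -0.33, for the interferon list 0.32 and 0.23, and for the FOXO list 0.38 and 0.26.

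Among the genes that rose were feedback and survival genes of cytokine signalling. Socs2 (chr10:95385362-95417180, minus strand), an inhibitor of growth hormone and cytokine receptor signalling that STAT5 induces, was at 2.97, 4.61, 5.61 and 5.47 CPM in OCR and at 37.0 and 20.7 CPM in OCRRF (log2 fold change 2.63 ± 0.26, adjusted p = 0.000174). The lowest refed library was several times the highest OCR library, and OAL lay between, at 8.04 to 16.1 CPM. The OCR mean of Socs2 was under 5 CPM, so it passed the level filter through the OCRRF libraries. Pim2, a serine kinase that supports survival and growth, was at 53.1, 73.9, 61.2 and 74.4 CPM in OCR and at 217 and 172 CPM in OCRRF (1.57 ± 0.13, adjusted p = 9.38e-05), with OAL spread over 89.0 to 213 CPM. Cish, another STAT5-induced inhibitor, went from 29.6 to 56.7 CPM in OCR to 84.9 and 70.5 CPM in OCRRF (0.94 ± 0.19, adjusted p = 0.011). Bcl6, a repressor that STAT5 can switch off, moved the other way, from 27.8, 16.8, 27.8 and 28.2 CPM to 9.39 and 9.86 CPM (-1.38 ± 0.21, adjusted p = 0.00198). In OAL it ran from 7.77 to 26.1 CPM, across both groups. Of the 16 genes of this list 3 were higher and 1 lower, with a median of 0.13 that turned to -0.0050 when all expressed genes set the scaling.

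Receptors and immune regulators rose beside them. Slfn2, a gene of the Schlafen family linked to T cell quiescence, was at 19.0, 29.9, 33.3 and 32.1 CPM in OCR and at 151 and 88.2 CPM in OCRRF (log2 fold change 2.07 ± 0.21, adjusted p = 0.000193). The refed libraries did not overlap OCR, and the OAL libraries lay at 44.2 to 118 CPM. Serpina3f, a protease inhibitor, rose 3.18-fold, and Gfi1, a repressor that restrains HSC proliferation, 3.02-fold, from 8.31 to 23.6 CPM to 56.2 and 27.4 CPM. The log2 fold change of Gfi1 was 0.99 in the fit without OCRRF replicate 1 (adjusted p = 0.287), and it was called neither there nor in DESeq2 nor with the covariate. Csf2rb, the common beta chain of cytokine receptors, was 2.31-fold higher (adjusted p = 0.00911). Xlr3b, from a family of near-identical X-linked copies whose reads can be split among members, spanned 2.23 to 26.8 CPM in OCR and stood at 96.8 and 57.2 CPM in OCRRF, and its value is uncertain for that reason. Slc17a8, a glutamate transporter, passed the call at 0.591 to 3.68 CPM in OCR and 3.91 and 17.8 CPM in OCRRF (adjusted p = 0.0378), where replicate 2 alone stood apart, and its log2 fold change was 2.88 without OCRRF replicate 1. Sema3e (a semaphorin) and Gimap3 (an immune GTPase) passed the filter at low levels too, with highest values of 12.6 and 14.8 CPM.

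**Figure D2:**
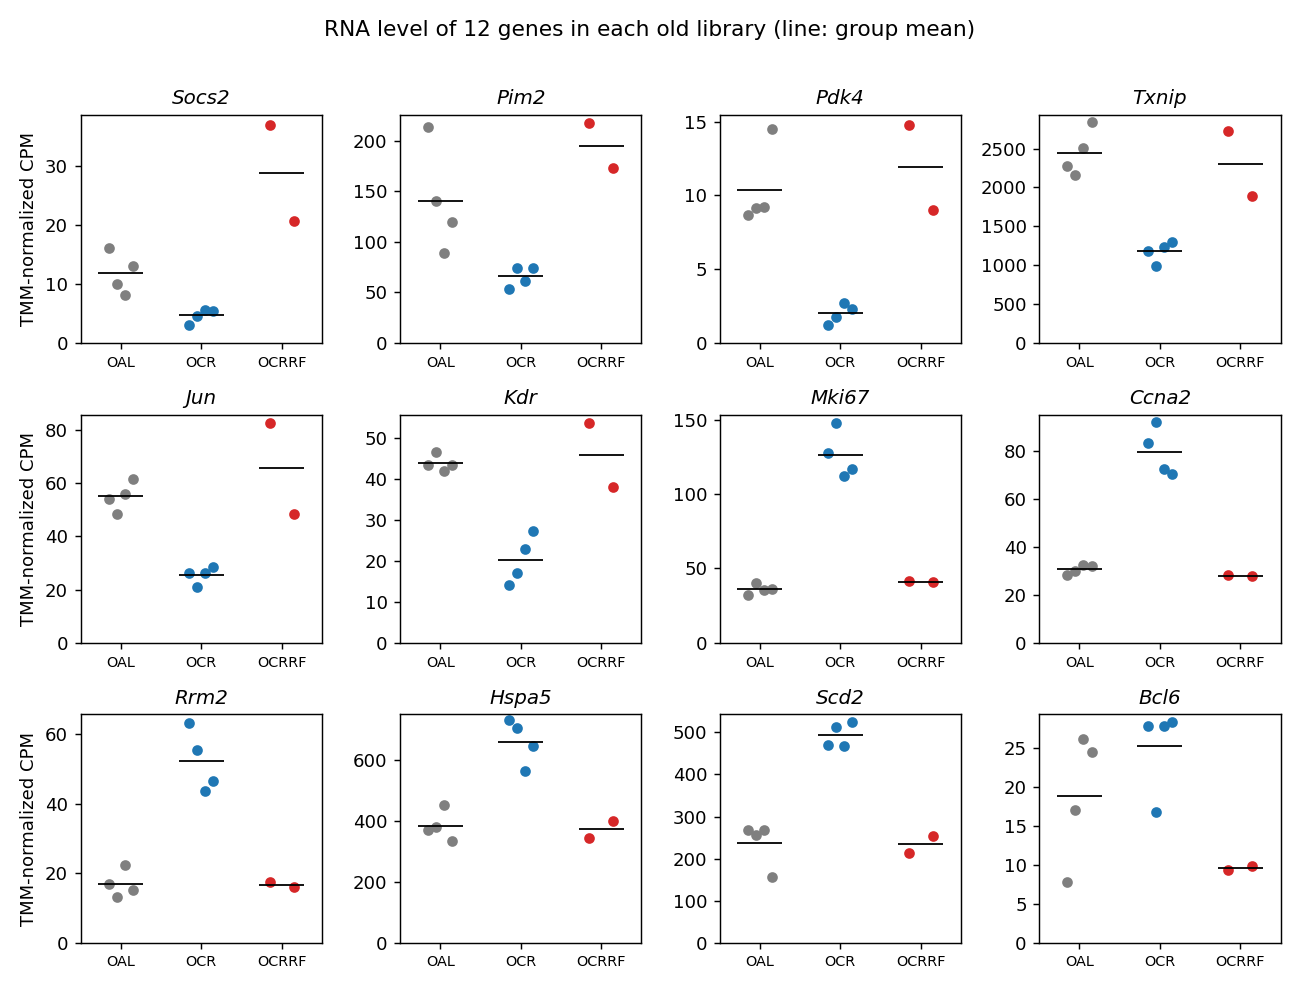
TMM-normalized CPM (vertical axis, linear, from 0) of 12 genes in each OAL, OCR and OCRRF library (horizontal axis), with a line at the group mean. Socs2, Pim2, Pdk4, Txnip, Jun and Kdr were higher and Mki67, Ccna2, Rrm2, Hspa5, Scd2 and Bcl6 lower in both OCRRF libraries than in every OCR library, and OCRRF replicate 1 (left point) was the higher of the pair in all 6 of the first genes.

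Some FOXO targets, several of them best known from the fasted state, rose after refeeding. Of 20 FOXO and insulin pathway genes tested 8 were higher and 1 (Bcl6) lower, with a median of 0.29. Pdk4 (chr6:5483351-5496309, minus strand), which blocks entry of pyruvate into the citric acid cycle, was at 1.25, 1.74, 2.73 and 2.33 CPM in OCR and at 14.8 and 9.03 CPM in OCRRF (log2 fold change 2.57 ± 0.28, adjusted p = 0.000282). All OCR libraries were below the filter level of 5 CPM, and the OAL libraries spanned 8.64 to 14.5 CPM. Txnip (chr3:96557957-96561883, plus strand), which limits glucose uptake, was at 1187, 991, 1237 and 1304 CPM in OCR and at 2721 and 1888 CPM in OCRRF (0.97 ± 0.13, adjusted p = 0.000984). OAL was at 2155 to 2844 CPM, so 1 refed library stood inside and the other below that range. Foxo1 itself went from 47.0 to 57.4 CPM to 77.4 and 73.7 CPM (0.56 ± 0.09, adjusted p = 0.00393). Trib3, an AKT-binding pseudokinase, rose 1.92-fold. Klf6, Sesn1, Igf1r and S1pr1 were the other members called higher. The count was 2 higher and 1 lower without OCRRF replicate 1, and the same with the covariate.

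Some genes of fatty acid oxidation rose and genes of lipid synthesis fell. Of 26 oxidation genes 6 were higher and 0 lower (median 0.09, turning to -0.05 when all expressed genes set the scaling). Cpt1a, which carries long-chain fatty acids into mitochondria, was at 210, 233, 224 and 206 CPM in OCR and at 348 and 321 CPM in OCRRF (log2 fold change 0.62 ± 0.07, adjusted p = 0.000483), near the OAL level of 329 to 394 CPM. Acot1 and Acot2, acyl-CoA thioesterases, rose 1.72-fold and 1.39-fold, and Ppargc1a, a coactivator of mitochondrial genes, and Acadl were also called. The oxidation list had 2 higher in the fit without OCRRF replicate 1, and 2 with the covariate. Of 29 cholesterol and fatty acid synthesis genes 12 were lower and 0 higher (median -0.29). Scd2 (chr19:44293674-44306864, plus strand), a desaturase that makes monounsaturated fatty acids, was at 470, 512, 468 and 524 CPM in OCR and at 214 and 254 CPM in OCRRF (-1.08 ± 0.09, adjusted p = 9.38e-05). Its OCR libraries stood at about the same level, with both refed libraries far below. The factor Srebf1 fell 1.47-fold and squalene epoxidase Sqle 1.44-fold. Srebf2 was at 339 to 377 CPM in OCR and 306 and 323 CPM in OCRRF (-0.19 ± 0.07, adjusted p = 0.116). The synthesis list had 2 calls without OCRRF replicate 1 and 1 with the covariate.

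Few genes of sugar and mitochondrial metabolism were called. Pfkfb3, which makes the activator of glycolysis fructose 2,6-bisphosphate, rose from 39.5, 40.7, 44.0 and 41.1 CPM to 116 and 81.7 CPM (log2 fold change 1.26 ± 0.12, adjusted p = 0.000154). The OCR libraries hardly varied, and OAL lay at 64.4 to 84.1 CPM. The glucose transporter Slc2a3 (1.23-fold) and hexokinase Hk2 (1.29-fold) also rose, and the other 21 of 24 glycolysis genes were not called (median of the list -0.04). Slc2a3 and Hk2 each lost the call in 7 of 16 alternative settings. With the covariate 1 glycolysis gene was called. Of 75 nuclear genes of oxidative phosphorylation 3 fell, namely Cycs (cytochrome c, 1.36-fold), Cox5a (1.33-fold) and Cyc1 (1.22-fold), with a median of -0.14. Of 8 tested mitochondrially encoded genes mt-Cytb (1.23-fold) and mt-Nd4 (1.29-fold) rose. Both counts went to 0 without OCRRF replicate 1, without OCRRF replicate 2, without OCR replicate 2 and with the covariate. Among 19 amino acid response genes, enzymes of serine and folate metabolism fell (Shmt1 1.60-fold, Psat1 1.48-fold, with Phgdh and Mthfd2) as did the transporters Slc7a5 and Slc1a5, while Trib3, Cebpb (1.71-fold), Sesn2 and Nupr1 rose. These 4 higher and 6 lower genes became 0 and 1 when OCRRF replicate 1 was left out and 0 and 0 with the covariate.

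Part of the chaperone genes fell. Of 31 ER chaperone and UPR genes 16 were lower and 1 higher, with a median of -0.46. Hspa5 (BiP; chr2:34771970-34777547, plus strand), the main ER chaperone, was at 728, 703, 561 and 644 CPM in OCR and at 344 and 399 CPM in OCRRF (log2 fold change -0.83 ± 0.11, adjusted p = 0.000719), with OAL at 335 to 453 CPM. Hsp90b1 (GRP94) fell 1.75-fold, Sdf2l1, a cofactor of BiP, 3.29-fold, Sec24d, a coat protein of ER export, 2.32-fold, and Dnajc3, a J-domain partner of BiP, 1.46-fold. Calreticulin (Calr) went from 877 to 1060 CPM to 528 and 680 CPM. In each of these genes both refed libraries were below every OCR library. The member that rose was Xbp1, the transcription factor of the UPR (0.50 ± 0.11, adjusted p = 0.018), named after its value was seen, at 151 to 185 CPM in OCR and 278 and 204 CPM in OCRRF. Of 27 cytosolic heat shock chaperones 5 were lower (Stip1, Fkbp4, Ptges3, Hsp90aa1 and Cct8, 1.22-fold to 1.39-fold) and 0 higher. The ER list had 3 lower and the cytosolic list 0 without OCRRF replicate 1, as they did with the covariate.

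Part of the interferon-stimulated genes rose in OCRRF. Of 43 tested 14 were higher and 0 lower, with a median of 0.29. Ifitm1, a membrane protein that blocks viral entry, was at 533, 511, 598 and 598 CPM in OCR and at 939 and 803 CPM in OCRRF (log2 fold change 0.64 ± 0.09, adjusted p = 0.00112). Iigp1, an interferon-induced GTPase, went from 134, 155, 127 and 126 CPM to 221 and 198 CPM (0.63 ± 0.09, adjusted p = 0.00151). The OCRRF libraries lay above all OCR libraries in both genes and, for Iigp1, above the OAL range of 111 to 174 CPM. Ifitm3 rose 1.35-fold and Ifi44 1.53-fold, and Ifit1, whose promoter is printed above, went from 21.5 to 26.0 CPM to 36.8 and 32.1 CPM (adjusted p = 0.0184). The factors Irf7, Irf1 and Stat2 were among the called members. Of 21 genes of antigen presentation, Cd74, the invariant chain of MHC class II, was higher (218 to 327 CPM in OCR, 425 and 457 CPM in OCRRF, adjusted p = 0.013) and the other 20 were not called. B2m, the light chain of MHC class I, was at 2712 to 2998 CPM in OCR and 3027 and 3264 CPM in OCRRF (adjusted p = 0.173). The interferon count was 3 higher without OCRRF replicate 1, 10 without OCRRF replicate 2, 8 without OCR replicate 2, 1 with the covariate and 6 higher and 1 lower when all expressed genes set the scaling.

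**Figure D3:**
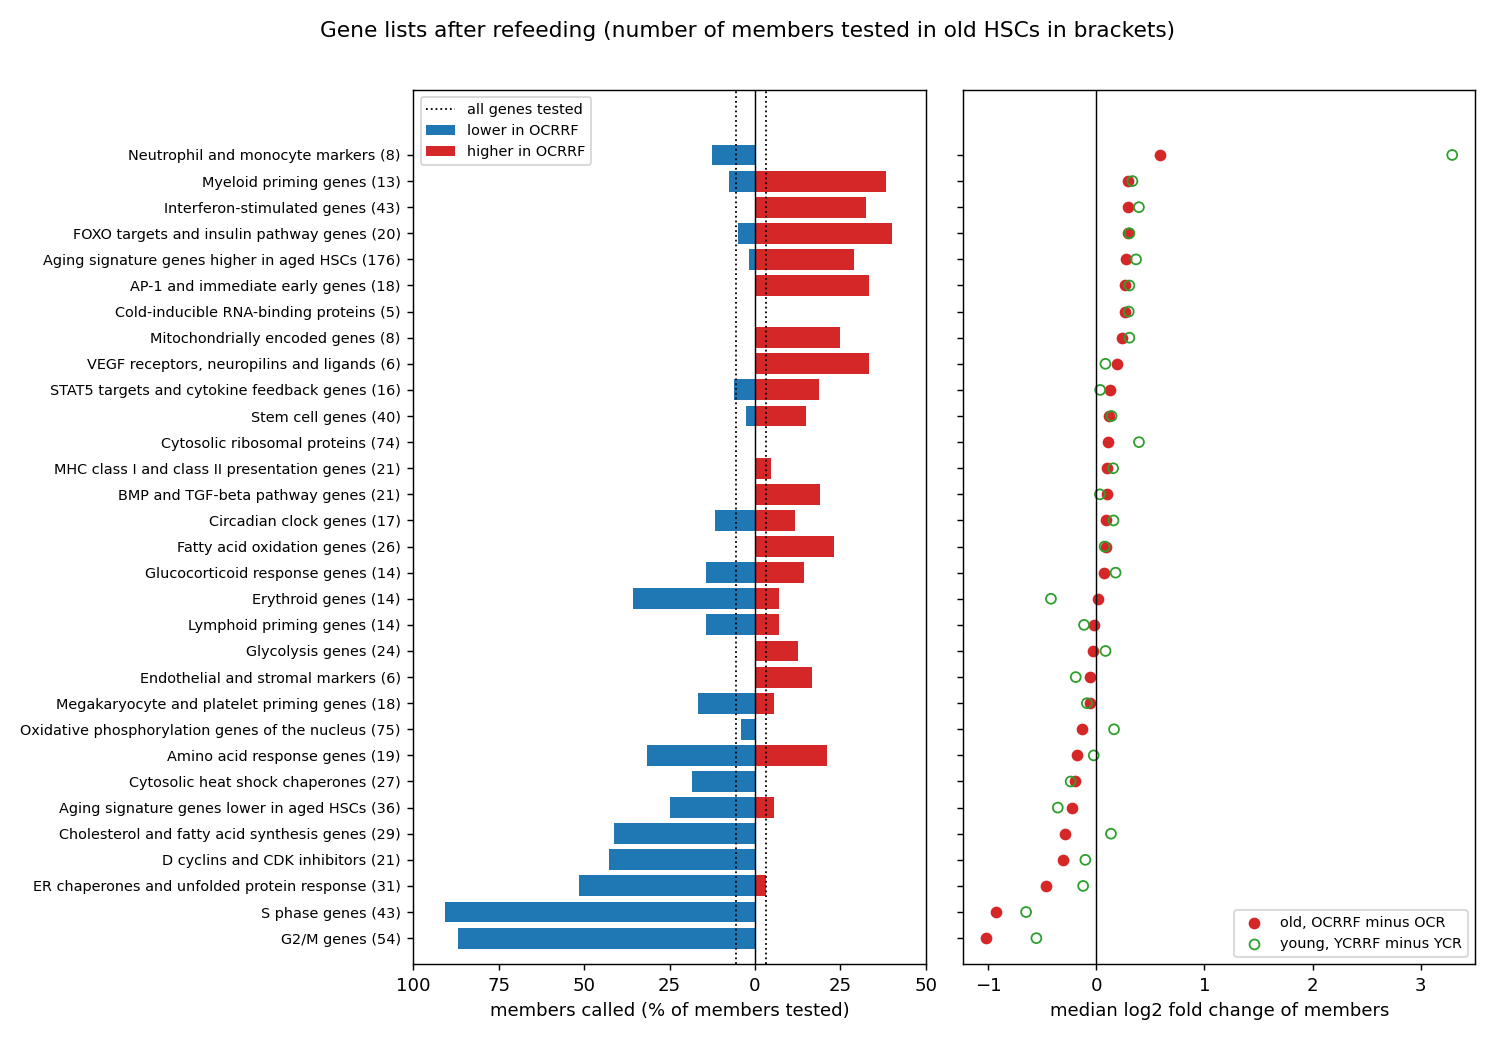
Left, percent of tested members called lower (blue, to the left) or higher (red, to the right) in OCRRF than in OCR for each gene list of at least 5 tested members (number in brackets), with dotted lines at the 5.65% lower and 3.17% higher of all genes tested. Right, the median log2 fold change of the members in old HSCs (filled) and young HSCs (open), where S phase genes had -0.93 and -0.65 and interferon-stimulated genes 0.29 and 0.39.

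Immediate early factors and genes of the BMP and VEGF pathways rose in part. Of 18 AP-1 and immediate early genes 6 were higher and 0 lower. Jun (chr4:95049034-95052222, minus strand), a core AP-1 subunit, was at 26.2, 21.1, 26.3 and 28.4 CPM in OCR and at 82.6 and 48.3 CPM in OCRRF (log2 fold change 1.36 ± 0.18, adjusted p = 0.000733). Fosl2 rose 2.51-fold, Klf10 1.79-fold and Junb 1.57-fold, and in all of them OCRRF replicate 1 was the higher of the pair. With that library left out Fosl2 had a log2 fold change of 0.70 (adjusted p = 0.0878) and Klf11, a TGF-beta-inducible factor, 0.44 (adjusted p = 0.308), neither called. Of 21 BMP and TGF-beta pathway genes 4 were higher, among them the ligand Bmp4 (7.49 to 15.3 CPM in OCR, 28.1 and 19.7 CPM in OCRRF; adjusted p = 0.0334), Klf11 and the helix-loop-helix factor Id2. The BMP receptor Bmpr1a stood at 22.9 to 24.8 CPM in OCR, at 24.5 and 31.1 CPM in OCRRF and at 28.5 to 45.3 CPM in OAL (0.23 ± 0.12, adjusted p = 0.285), so that a difference from OCR was not detected. Kdr (VEGF receptor 2; chr5:75932827-75978458, minus strand) was at 14.0, 17.2, 23.0 and 27.2 CPM in OCR and at 53.8 and 38.0 CPM in OCRRF (1.18 ± 0.22, adjusted p = 0.00654), around the OAL level of 42.1 to 46.6 CPM. The ligand Vegfc rose 1.43-fold. Leaving out OCRRF replicate 1 or adding the covariate, 0 genes of the BMP and VEGF lists were called, and 1 (without replicate 1) or 2 (with the covariate) of the AP-1 list.

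Stem cell and lineage genes moved in both directions. Of 40 stem cell genes 6 were higher and 1 lower, with a median of 0.12 that turned to -0.02 when all expressed genes set the scaling. Ly6a (Sca-1) went from 172, 161, 157 and 149 CPM to 236 and 247 CPM (log2 fold change 0.60 ± 0.07, adjusted p = 0.000549), and Procr (EPCR) and Mllt3, both linked to HSC self-renewal, rose 1.39-fold and 1.37-fold. Vwf, a mark of platelet-biased HSCs, rose 1.55-fold. The stem cell list had 2 higher and 0 lower when OCRRF replicate 1 was left out, and 1 and 0 with the covariate. Kit, the receptor for stem cell factor and part of the sort gate, was the member called lower, at 1574 to 1927 CPM in OCR and 1423 and 1387 CPM in OCRRF (adjusted p = 0.0265). Among 14 erythroid genes 5 were lower, including Gata1, the main erythroid and megakaryocyte factor (9.30 ± 2.13 CPM in OCR, mean ± SD, and 2.76 and 4.43 CPM in OCRRF; adjusted p = 0.00955), Zfpm1 (1.34-fold), Aqp1 (1.37-fold), Car2 (1.32-fold) and Epor. Both OCRRF values of Gata1 were under 5 CPM, so it passed the level filter through the OCR libraries. Hbb-bs alone was higher and overlapped between the groups, at 9.58 to 32.5 CPM and 23.7 and 83.1 CPM. Of 18 megakaryocyte genes Gp5 (1.84-fold), Plek (1.49-fold) and Itga2b (1.26-fold) were lower and Vwf higher. Of 13 myeloid genes 5 were higher, with Gfi1, Csf2rb, Cebpb, Irf8 and Prtn3, and Calr was lower. Spi1, which encodes PU.1, was at 59.0 to 64.6 CPM in OCR and at 52.9 and 57.9 CPM in OCRRF (-0.17 ± 0.09, adjusted p = 0.255), and its relative Spib did not reach the level filter. Of 14 lymphoid genes Ltb rose 1.51-fold, and Runx3 (1.59-fold) and Ikzf1 (1.24-fold) fell. Summed erythroid genes stood at 1935 to 2172 CPM in OCR and at 1530 and 1808 CPM in OCRRF. Most of this sum was Car2, at 1443 to 1685 CPM in OCR and at 1117 and 1249 CPM in OCRRF. Of the 14 tested erythroid genes 7 had a positive and 7 a negative log2 fold change (median 0.01). In the fit without OCRRF replicate 1 the erythroid list had 4 higher and 0 lower, and the myeloid, lymphoid and megakaryocyte lists had 0 called.

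Part of the genes known from earlier work to rise in aged HSCs were higher after refeeding. Of 176 such genes tested 51 were higher and 3 lower (median 0.27), against 3.17% and 5.65% of all genes. Clu (clusterin), an extracellular chaperone, was at 92.1, 94.2, 135 and 108 CPM in OCR and at 199 and 213 CPM in OCRRF (log2 fold change 0.94 ± 0.13, adjusted p = 0.000959), inside the OAL range of 192 to 226 CPM. Jam2, a junctional adhesion protein, went from 60.9 to 80.2 CPM to 135 and 126 CPM, Lpar6, a receptor for lysophosphatidic acid, from 133 to 153 CPM to 213 and 210 CPM, and Asb4 rose 2.44-fold. Osmr, the oncostatin M receptor, rose 1.59-fold, Sult1a1, a sulfotransferase, 1.92-fold, and Klrb1c (NK1.1) 1.82-fold. The members that fell were Bcl6, Plek and Thbd. Of 36 genes known to fall with age 9 were lower and 2, Socs2 and Csf2rb, higher (median -0.22), and Mcm5, Mcm7, Rfc2 and Ect2 among the lower ones belong to replication and division. The count of the first list was 14 higher and 1 lower without OCRRF replicate 1 and with the covariate 6 and 1, and for the second list 1 higher and 3 lower in either.

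Other lists had few calls or none. Of 74 ribosomal protein genes 0 were called by edgeR or by DESeq2 (median 0.11, which turned to -0.03 when all expressed genes set the scaling). Rps27 had an adjusted p of 0.0443 at 1.19-fold, under the fold threshold. Of the 5 genes placed in the cold-inducible list 0 were called by edgeR or by DESeq2 (median 0.26), with Cirbp at 83.3 to 184 CPM in OCR and 174 and 153 CPM in OCRRF. Among 17 clock genes 2 were higher, Bhlhe40 (1.75-fold) among them, and Tef (1.34-fold) and Per3 (1.32-fold) were lower. Among 14 glucocorticoid response genes Klf9 (1.59-fold) and Mt1 (1.47-fold) were higher, and Zbtb16 (a log2 fold change of -0.59) and Fkbp5 (-0.28) lower. Fkbp5 lost its call in 10 of 16 alternative settings. Adding the receptor background as a covariate left 0 genes called in the clock list and 0 in the glucocorticoid list. Of the markers of other cells, 1 of 6 endothelial and stromal genes (Emcn, 14.6 to 19.9 CPM in OCR, 31.6 and 26.6 CPM in OCRRF) and Klrb1c were higher, and Cd68 lower. Of 8 neutrophil and monocyte markers tested, 7 had a positive log2 fold change (median 0.59) but 0 were called higher. With the receptor background as a covariate the median of this list was -0.50.

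The contrast in young animals asked whether the same genes moved when a short restriction ended. It shared no library with the old contrast. Of 12182 genes tested in YCRRF against YCR 2 were called (0.0164%), both higher, with 1229 (10.1%) at an unadjusted p under 0.05 and 220 called by DESeq2. They were Slfn2 (26.1, 38.0, 20.7 and 30.7 CPM in YCR, 87.7, 103, 99.2 and 104 CPM in YCRRF; log2 fold change 1.77, adjusted p = 0.0194) and Pqlc3 (1.14, adjusted p = 0.0319), the latter named after its value was seen. YCRRF replicate 3 stood apart, with 4.09% of its counts on mitochondrially encoded genes against 1.09% to 1.67% in the other young libraries, and without it 67 genes were called (43 higher and 24 lower). In counts simulated on these libraries, 6% of genes changed 1.5-fold and 30% of those changed 2-fold were recovered in the young contrast, against 70% and 97% in the old contrast. Of the genes called higher in old HSCs and given a young value, 326 of 364 (89.6%) had a positive log2 fold change, with a median of 0.44, and 165 were higher and 3 lower at an unadjusted p under 0.05. Of those called lower, 75 of 692 (10.8%) were positive, with a median of -0.33, and 1 was higher and 237 lower at that p. Over all genes given a young value 52.5% were positive, with a median of 0.02. Without YCRRF replicate 3 the shares were 88.4%, 10.5% and 50.3%. Young values were looked up by symbol with partial matching, so a few can belong to a gene with a longer symbol. The same holds for log2 fold changes against OAL and for named genes under alternative settings. For the young values without YCRRF replicate 3 exact matching was used, and it held 363 of the 364, 692 of the 692 and 11973 of the 11983 genes.

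The lists and single genes gave these values in young HSCs. All 43 S phase genes had a negative log2 fold change in young HSCs (median -0.65) and 50 of 53 G2/M genes did (median -0.56), with 0 called and 31 and 24 lower at an unadjusted p under 0.05. Mki67 was at 64.6, 86.7, 48.0 and 52.5 CPM in YCR and at 41.1, 16.7, 11.3 and 32.1 CPM in YCRRF (-1.32, adjusted p = 0.24). The young groups did not overlap, but varied far more than the old ones. Socs2 was at 14.7 to 22.4 CPM in YCR and at 31.9 to 80.4 CPM in YCRRF (1.71, adjusted p = 0.0797), and Pim2 at 31.2 to 38.0 CPM and 63.7 to 105 CPM (1.33, adjusted p = 0.0515). Clu was at 19.6 to 38.8 CPM in YCR and at 56.3 to 108 CPM in YCRRF (1.63, adjusted p = 0.0706). Without YCRRF replicate 3 the adjusted p was 0.0414 for Socs2, 0.00549 for Pim2 and 0.00559 for Clu. The interferon list had a young median of 0.39 with 40 of 43 genes positive, and 125 of 155 genes known to rise with age were positive. The ribosomal list rested on 1 library, with a young median of 0.39 that turned to -0.21 without YCRRF replicate 3. Neutrophil markers moved with the young groups, as S100a9 was at 76.2, 1.96, 0.600 and 1.77 CPM in YCR and at 157, 356, 298 and 56.7 CPM in YCRRF, and their part in the young differences was not tested.

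**Figure D4:**
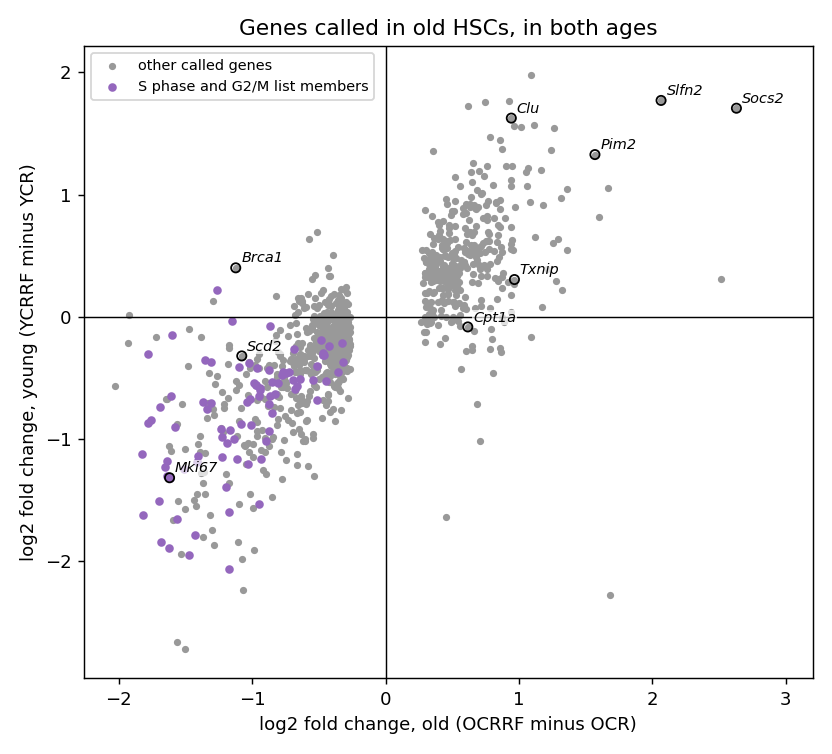
Log2 fold change after refeeding in old HSCs (horizontal axis, OCRRF minus OCR) and young HSCs (vertical axis, YCRRF minus YCR) of the genes called in old HSCs and given a young value, with S phase and G2/M genes in purple. Called genes were picked on the horizontal axis only, and 326 of 364 higher and all but 75 of 692 lower genes lie on the same side of 0 on the vertical axis.

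The difference between the ages was tested itself, as old minus young, over 12312 genes. In edgeR's quasi-likelihood test 0 genes were called, with 377 (3.06%) at an unadjusted p under 0.05, and DESeq2 called 8. In simulated counts 6% of genes that differed 2-fold between the ages were recovered. The smallest p-values, unadjusted and past no correction, belonged to P2rx1, an ATP-gated channel (old 0.28, young -0.64), Asah1, acid ceramidase (0.00 and 0.69), Rfc5, a clamp loader subunit (-0.68 and 0.01), and Sult1a1 (0.94 and 0.04), all on the log2 scale. Among genes of lipid metabolism, Cpt1a had 0.62 in old and -0.08 in young HSCs (difference 0.70, adjusted p = 0.978), at 196 to 214 CPM in YCR and 143 to 233 CPM in YCRRF. Scd2 had -1.08 and -0.32, and Sqle -0.53 and 0.34. The sterol and fatty acid synthesis list had medians of -0.29 in old and 0.13 in young HSCs, and the ER list -0.46 and -0.12. Whether these lists differ between the ages was not tested.

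Chromatin accessibility (ATAC-seq) of 4 OCR and 2 OCRRF libraries with 15721335 to 19558148 counts in peaks gave another readout of the same contrast. Of 101087 peaks tested 647 were called (0.64%), 414 higher (0.41%) and 233 lower (0.23%), with 12.5% at an unadjusted p under 0.05. For 11688 genes the peak with the most reads within 1 kb of a transcription start site (TSS) was taken as the promoter peak. Of these genes 53 (0.453%) had a promoter peak called higher and 20 (0.171%) lower. Of 370 genes called higher in RNA and holding a promoter peak, 14 (3.78%, on 12 peaks) had it called higher and 0 lower, and 73.8% had a positive log2 fold change against 56.1% of all genes, with a median of 0.07 against 0.02. Of 686 genes called lower in RNA, 2 had a lower promoter peak and 1 a higher one, and 45.3% were positive (median -0.01). Leaving out OCRRF replicate 1 took the number of genes with a called promoter peak from 73 (0.625%) to 9, and leaving out OCRRF replicate 2, OCR replicate 1 or OCR replicate 2 to 33, 33 and 29.

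The genes higher in both readouts included several described above, and peak positions are given as in the deposited tables (mm10). At Txnip (peak chr3:96557465-96558489) accessibility was 28.2, 30.0, 31.4 and 30.9 CPM in OCR and 51.9 and 44.7 CPM in OCRRF (log2 fold change 0.68 ± 0.08, adjusted p = 1.47e-05). The peak also covers the start of Gm15441, an overlapping gene called higher in RNA, whose reads cannot be parted from those of Txnip without strand. At Socs2 (chr10:95416493-95418205) accessibility went from 28.3 to 34.1 CPM to 50.1 and 40.2 CPM (0.53 ± 0.09), and at Pdk4 (chr6:5495900-5497119) from 61.1 to 69.5 CPM to 88.2 and 83.6 CPM (0.40 ± 0.06). Jun (chr4:95051432-95053632), which shares its peak with Junos, had 106 to 123 CPM and 148 and 131 CPM (0.29 ± 0.06), and Sult1a1 7.19 to 9.93 CPM and 12.9 and 13.1 CPM (0.60 ± 0.15). Both refed libraries lay above all OCR libraries at each of these peaks. The rest of the 14 were Xlr3b, Plxna4os1, Gbp5, Spef2, 4833407H14Rik, Zfp37 and Cnrip1, the last sharing its peak with Plek, which fell in RNA. The 42 S phase and 51 G2/M genes with a promoter peak had median log2 fold changes in accessibility of -0.07 and 0.04. Mki67 had -0.27 (adjusted p = 0.177). Among the cycle regulators E2f1 was called, at 37.1 to 44.3 CPM in OCR and 33.5 and 29.3 CPM in OCRRF (-0.38 ± 0.09, adjusted p = 0.028).

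**Figure D5:**
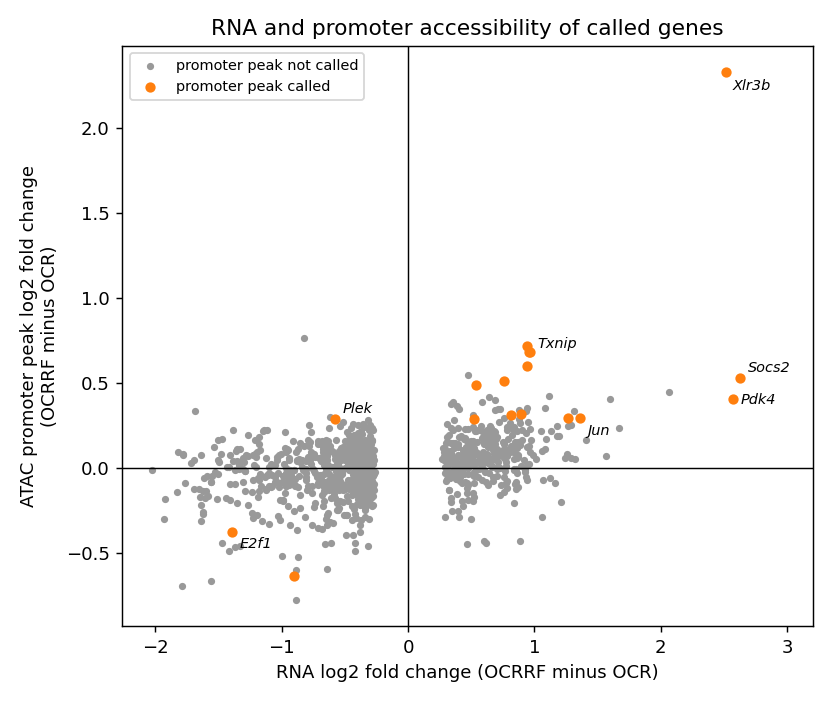
RNA log2 fold change (horizontal axis) against the log2 fold change of the promoter peak in ATAC-seq (vertical axis), both OCRRF minus OCR, for genes called in RNA that have a promoter peak, with called peaks in orange. Of the genes called higher in RNA 14 had a higher peak, and of those called lower E2f1 and Nsl1 had a lower peak and Plek a higher one.

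Histone marks were at hand for 2 OCR libraries each and describe the promoters before refeeding. H3K27me3, the Polycomb mark of silenced genes, had a median signal of 0.198 over genes called higher, 0.181 over genes called lower and 0.178 over all tested genes (upper quartiles 0.317, 0.283 and 0.258). H3K4me3, a mark of active starts, had medians of 24.4, 29.6 and 30.0. Several genes that rose carried high H3K27me3 in OCR. Socs2 had a signal of 4.13 (4.37 and 3.88 in the libraries), Gfi1 3.29, Bmp4 2.75, Sema3e 2.46, Kdr 1.77, Asb4 1.64 and Osmr 1.22. Bmpr1a, which was not called, had 3.01, and Runx3, which fell, 3.58. High signal was found on genes that rose, fell or were not called. Its level after refeeding is not known, since the series holds histone libraries of OAL and OCR only.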

How the data were processed

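RNA-seq was analysed for 18 libraries (4 OAL, 4 OCR, 2 OCRRF, 4 YCR and 4 YCRRF) and ATAC-seq for 4 OCR and 2 OCRRF libraries, grouped by GEO's labels. The RNA files held raw read counts per gene symbol, which the authors made by trimming (trim galore, cutadapt), alignment to mm10 with STAR on GENCODE M22 and counting with featureCounts. Strand and multi-mapping settings are not given in the sources used here, so overlapping and antisense genes cannot be told apart. The labels name a SMARTer total RNA kit and poly(A) RNA, and the methods a SMART-Seq kit. The ATAC files held counts in consensus peaks, which the authors merged from MACS peaks of all replicates after BWA alignment. H3K4me3 and H3K27me3 files held promoter signal deposited as mean signal per base, which the authors had scaled for library depth, for 2 OCR libraries each.

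Genes with a mean CPM of at least 5 over the libraries of a fit were TMM-normalized and tested with edgeR 4.0.16 (glmQLFit and glmQLFTest, R 4.3.3). Peaks with a mean CPM of at least 1 were tested likewise, and the promoter peak of a gene was the peak with the highest mean CPM within 1000 bases of a GENCODE M21 transcript start. Features were called at a fold above 1.2 and a p under 0.05 after Benjamini-Hochberg adjustment. Log2 CPM values for the list scores, the principal components and the pairing of replicates used a prior count of 2. Fold changes kept edgeR's default. DESeq2 1.42.0 was an alternative. Old minus young was an interaction term. Motifs were searched in 250 bases before RefSeq starts. The old fit was tested on simulated counts for 12488 genes with 200 changed, and recovered 70% at 1.5-fold and 97% at 2-fold, with 8 false calls. Alternatives were other scalings, filters and call rules, a 3-group fit, a background covariate, a replicate block and each library left out in turn.

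The comparison, gene lists and tests were chosen with earlier results of these data known. The aging signature lists are gene names from earlier studies, taken from the study's supplement. Named genes were the 12 called, non-overlapping, non-predicted genes with the largest change in each direction, genes the study names for restricted HSCs, up to 4 members per list with the smallest p, and the 4 smallest interaction p-values in each direction. Members named besides these, where a list had few calls, were chosen after their values were seen. Values of some list members are not reported here.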

Additional observations from a re-analysis of the deposited data

Results flagged for a closer look

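In 3 of 162 sets of 4 libraries of a group (1.85%), a single library lay far from the rest, measured as its gap to the nearest library over the range of the group. Chance would flag about 1 in 20 sets. Clk4, a kinase of splicing factors placed in the cold-inducible list, was at 152, 150, 151 and 183 CPM in OCR, where replicate 4 took 0.935 of the range. In OCRRF it was at 208 and 174 CPM (log2 fold change 0.26, adjusted p = 0.126 in edgeR's quasi-likelihood test). Bcl6 was at 27.8, 16.8, 27.8 and 28.2 CPM in OCR, where replicate 2 took 0.962 of the range and still lay above both OCRRF libraries. Total counts of the YCRRF libraries had a gap of 0.876 of the range, since replicate 4 held 11102898 counts and the others 33420651 to 36579392.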

How the results depend on the processing

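The count of 1102 genes called in old RNA was 1702 with scaling factors from all expressed genes (301 higher and 1401 lower), 139 with the receptor background as a covariate and 213 (without OCRRF replicate 1) to 1373 (without OCR replicate 4) with single libraries left out. It was 526 without OCRRF replicate 2 and 561 without OCR replicate 2. DESeq2 called 1509 and the other filters 1009 to 1359. Of the called genes 35.9% were higher, against 17.7% with all-gene scaling, 20.4% with edgeR's own expression filter, 23.5% with no filter, 23.3% at a mean of 1 CPM, 20.1% with the covariate and 24.9% without OCRRF replicate 1. Replicate numbers did not pair the libraries (correlations of deviations of -0.170 and -0.0728 in old RNA and -0.0421 to 0.0134 in young RNA). The replicate block gave 2005 calls in old RNA (50.8% higher), 1 in young RNA (0 higher) and 140 genes with a called promoter peak. OCR replicate 3 and OCR replicate 4 have no OCRRF library of the same number. In old RNA and ATAC-seq the blocked contrast therefore rested on replicates 1 and 2 of each group. The 2 young calls became 220 with DESeq2, 275 with no filter, 6 with all-gene scaling, 4 at a mean of 10 CPM and 0 to 67 with single libraries left out, 9 without YCR replicate 1 and 67 without YCRRF replicate 3. The interaction count of 0 was 8 with DESeq2, 1 with edgeR's own filter and 0 to 2 with single libraries left out. The 73 genes with a called promoter peak were 9 to 94 with single libraries left out. With the covariate 19 S phase and 27 G2/M genes were called. Of 33 list medians 22 kept their direction under all-gene scaling and 25 under edgeR's filter or no filter. Those above the replicate spread that turned negative under all 3 were -0.034, -0.034 and -0.035 for antigen presentation, -0.0050, -0.0050 and -0.0051 for STAT5 targets, -0.066, -0.046 and -0.046 for glucocorticoid response, -0.029, -0.029 and -0.028 for ribosomal proteins and -0.015, -0.015 and -0.016 for stem cell genes, and under all-gene scaling alone -0.051 for fatty acid oxidation and -0.038 for BMP and TGF-beta genes. All-gene scaling also turned the medians of the clock (-0.04), erythroid (-0.12), B and plasma cell (-0.11) and T and NK cell (-0.11) lists. Of the 120 named genes that were called, 44 were called under every setting that tested them (16, but 13 for Pdk4 and 15 for Asb4), and the other 76 each lost the call without OCRRF replicate 1 or with the covariate. No named gene that was called changed direction. The causes were not tested. With 2 refed libraries, the fit without either leaves a lone OCRRF library, whose spread is taken from OCR.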
